A study of Mus musculus with 4 samples.

Results

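Chylomicrons are the particles in which the small intestine exports dietary fat. In the enterocyte, the absorptive cell of the villus, fatty acids and monoglycerides are taken up and rebuilt into triglyceride at the endoplasmic reticulum, the microsomal transfer protein loads that lipid onto apolipoprotein B, and the particle gains further apolipoproteins on its way to the lymph. Enterocytes are born in the crypt and change their transcripts as they climb the villus, so the level of these genes is known to depend on position. The 10 genes described here are the apolipoprotein genes Apoa1, Apoa4, Apob, Apoc2 and Apoc3, the lipid transfer gene Mttp, the triglyceride synthesis genes Dgat1, Dgat2 and Mogat2, and the fatty acid receptor gene Cd36. They were taken by symbol from the gene table of each library, 10 of 10 were found, and 10 of 10 passed every filter on low counts.

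Small intestinal epithelium was compared between mice lacking the interferon lambda receptor gene Ifnlr1 in intestinal epithelium (VilCreIfnlr1fl/fl, in which the Villin promoter drives Cre in those cells, called KO here) and wild-type mice (WT). Both genotypes received 11 Gy of gamma irradiation with the head, thorax and upper limbs shielded, so no value here shows unirradiated epithelium. The design text puts collection at 96 h and the extraction protocol at 3 days. Live EPCAM-positive, CD45-negative cells of 3 mice per genotype carried 1 hashtag per mouse and were pooled into 1 10x Genomics 3′ library per genotype, and a difference of genotype and a difference of pool cannot be told apart. The ages of the mice are not given in the labels.

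The libraries held 110960113 UMIs of genes (unique molecular identifiers, each counting 1 transcript caught) in 7370 KO barcodes and 102915321 in 10453 WT barcodes. A minimum of 1000 UMIs and 500 genes and a mitochondrial share of no more than 25% left 4028 KO and 5563 WT barcodes, and 9 of them had the same sequence in both libraries. Clusters made without the 10 genes gave 6212 enterocyte-like cells (2914 KO, 3298 WT), of which 4164 could be assigned to a mouse, 847, 609 and 647 from KO mice 1 to 3 and 618, 564 and 879 from WT mice 1 to 3. Enterocyte-like KO cells came mostly from clusters 0, 2, 9 and 12 and WT cells mostly from clusters 1, 3, 5, 8 and 10, so the class was not made of the same clusters in both genotypes. In these cells Epcam stood at 2697 to 4312 CPM (UMIs of a gene per 1000000 UMIs) in KO mice and 2688 to 3334 CPM in WT mice, and Ptprc, which encodes CD45, had 0 UMIs in the KO mice and at most 2 in a WT mouse. Ifnlr1 stood at 40.0, 22.99 and 33.1 CPM in KO mice and 36.4, 25.3 and 36.0 CPM in WT mice, and 3′ counts need not cover the deleted part, so this does not check the deletion. KO2 and WT2, the mice with hashtag 2, stood apart in both libraries: they held 133 and 76 cells of the deeply sequenced cluster 13, against 0 to 3 in the other mice. Results that rest on these mice are given with and without them.

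Position was scored in each enterocyte-like cell from 9 upper and 11 lower villus landmark genes, none of them among the 10, and the assigned cells were split by score into 3 zones with the same number of cells, lower, middle and upper. Of the 11 lower landmark genes, 2 had no UMIs in KO1, KO3 and WT1 and 3 had none in WT3. In KO2 and WT2 the number of such genes was 0, and the part of this in the zones was not tested. Of the 4164 cells, 462 and 866 lay within 0.1 SD of the lower and upper limits, so the zones are ranges and not cell types. Cells of the lower zone were deeper, with medians of 9619 to 43656 UMIs per cell across mice, against 7372 to 9020.0 in the upper zone. The median mitochondrial share was 7.59% to 16.8% in the lower zone and 13.4% to 15.8% in the upper zone across mice, and the part of depth and of this share in the results was not tested. The 12 enterocyte markers summed to 38522 to 56489 CPM in the lower zone and 10461 to 13880 CPM in the upper zone, and a list of mid villus transporters, not used in the score, summed to 3140 to 6255 CPM in the lower, 3120 to 3857 CPM in the middle and 2436 to 2780 CPM in the upper zone. That list was highest in the lower zone in 6 of 6 mice, which goes against its name, so lower, middle and upper are used here for ranges of the score and not for measured heights on the villus.

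Of the 10 genes, 6 had a promoter in the RefSeq table of build GRCm38.p6, as 250 bases before and 50 after the start. They are shown for 2 genes that were higher and 2 that were lower in the upper zone. Capitals mark matches, on either strand, to CAAAGTTCA or CAAAGTCCA (forms of the site of the hepatocyte nuclear factor HNF4), TATAAA (the TATA box) and TGACG (a part of the cyclic AMP response element, not the whole), and no matches overlapped.
Apoa4 (chr9:46240594-46240893, plus strand): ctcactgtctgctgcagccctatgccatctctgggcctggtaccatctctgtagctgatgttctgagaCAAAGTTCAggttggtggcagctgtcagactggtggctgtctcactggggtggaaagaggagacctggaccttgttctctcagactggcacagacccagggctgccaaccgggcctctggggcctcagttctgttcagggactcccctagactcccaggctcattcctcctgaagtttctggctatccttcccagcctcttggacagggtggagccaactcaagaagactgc
Apob (chr12:7977427-7977726, plus strand): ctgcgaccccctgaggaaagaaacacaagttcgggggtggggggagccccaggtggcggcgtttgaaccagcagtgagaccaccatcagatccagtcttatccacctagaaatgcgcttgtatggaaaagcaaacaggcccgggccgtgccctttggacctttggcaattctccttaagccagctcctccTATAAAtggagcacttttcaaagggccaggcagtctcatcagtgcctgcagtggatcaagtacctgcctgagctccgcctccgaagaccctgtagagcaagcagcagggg
Apoc2 (chr7:19677892-19678191, minus strand): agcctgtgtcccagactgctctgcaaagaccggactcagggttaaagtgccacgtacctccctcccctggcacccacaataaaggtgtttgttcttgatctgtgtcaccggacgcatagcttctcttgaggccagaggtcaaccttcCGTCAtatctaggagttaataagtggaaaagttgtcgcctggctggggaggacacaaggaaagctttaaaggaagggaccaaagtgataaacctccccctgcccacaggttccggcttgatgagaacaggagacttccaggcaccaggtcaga
Mttp (chr3:138143369-138143668, minus strand): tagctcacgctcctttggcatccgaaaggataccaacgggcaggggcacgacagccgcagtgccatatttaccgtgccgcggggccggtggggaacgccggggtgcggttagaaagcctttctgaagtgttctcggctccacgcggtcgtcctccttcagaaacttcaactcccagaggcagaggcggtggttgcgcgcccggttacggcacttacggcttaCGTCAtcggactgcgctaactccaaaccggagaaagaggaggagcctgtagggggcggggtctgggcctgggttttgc
Apoa4 held CAAAGTTCA at 182 bases before the start, a match found in 0.390% of the 32851 promoters of the table. Apob held TATAAA at 60 bases before the start, found in 13.6% of them, and Apoc2 and Mttp held TGACG on the opposite strand, found in 20.8%. The promoters of Apoa1 and Cd36 held none of these letters in this window. The Mttp window lies inside the annotated span of Mttp (138089854 to 138144968), so its start is not the outermost one. The annotated gene Trmt10a begins within the Mttp window. The Cd36 window (17835847 to 17836146) likewise lies inside the span of Cd36 (17781690 to 17888801). The annotated spans of Apoa4, Apob and Apoa1 begin at 46240696, 7977648 and 46228580, ahead of the starts used in their windows. The distances given for Apoa4 and Apob are thus from the start in the promoter table and not from the first annotated base. A match is a description of the letters and shows no binding.

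Apoa1, Apoc3 and Apoa4 are neighbours on mm10 chromosome 9, at 46228580 to 46230466, 46232933 to 46235636 and 46240696 to 46243459, with Apoc3 on the strand opposite to the others. Dgat2 (99153658 to 99182719) and Mogat2 (99219084 to 99238619) are neighbouring protein-coding genes on the minus strand of chromosome 7. Apoc2 (chromosome 7, 19671579 to 19677941) overlaps the annotated gene Gm44805, Mttp (chromosome 3, 138089854 to 138144968) overlaps Trmt10a and Gm43691, Apoa4 overlaps Gm47528 and Gm10680, and Mogat2 overlaps Gm45012. Whether the counting used strand is not given in the sources used here, so the counts of these 4 genes may hold reads of their partners.

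Apob, Apoa4 and Apoa1, 3 of the 5 apolipoprotein genes, were higher in the upper zone in 6 of 6 mice, and the order lower, middle, upper held in each of those mice. Dgat1 and Dgat2 were also higher in the upper zone. Mogat2, Apoc2 and Mttp were lower there. Across all genes this contrast called 73.6% of the 8302 tested, 35.8% higher and 37.7% lower, so 5 higher and 3 lower among 10 genes is close to that background. The median log2 fold change was 0.51 over the 10 genes and −0.04 over all genes tested. All tests across genes are edgeR's quasi-likelihood test with Benjamini-Hochberg adjustment, except where DESeq2 is named. Tests of position, and of its difference between genotypes, used UMI sums per mouse and zone with mouse as a term. Tests of KO over WT used sums per mouse, or the sums of 1 zone, without that term. Levels below are plain CPM, while fold changes are scaled by TMM, so the sizes of the 2 can differ.

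**Figure D1:**
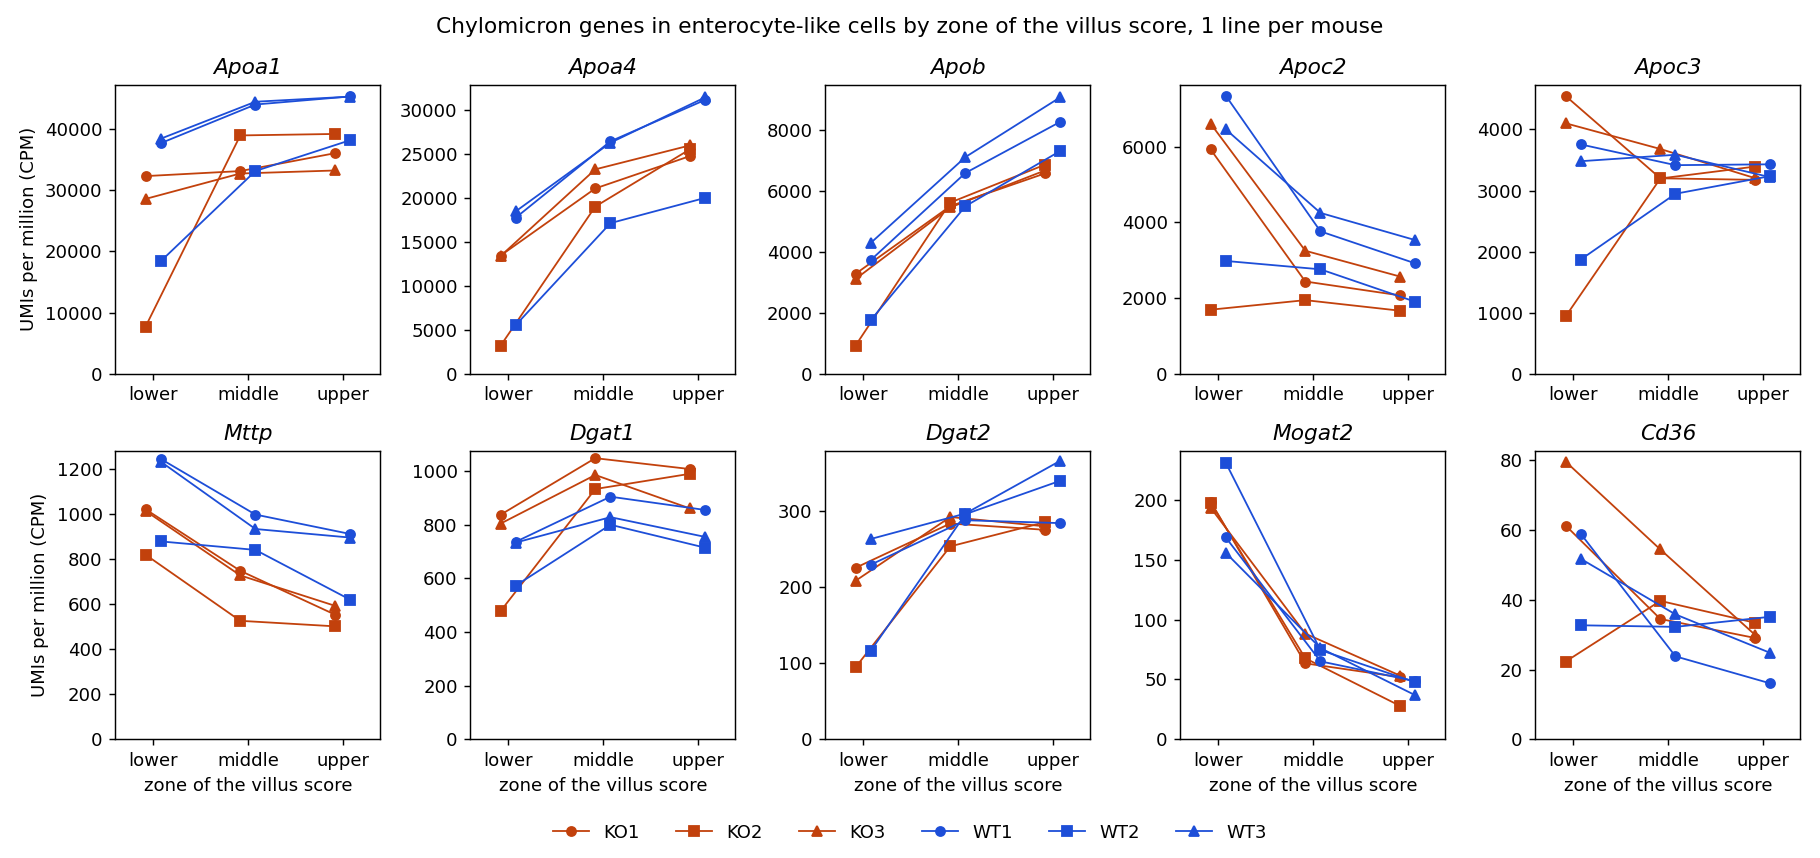
CPM (vertical axes, from 0) of the 10 genes in the lower, middle and upper zone of the villus score (horizontal axes), with 1 line per mouse, KO in orange and WT in blue. Apob, Apoa4 and Apoa1 climb in 6 of 6 mice, Mogat2 and Mttp decline in 6 of 6, and the squares of KO2 and WT2 start lowest for the apolipoproteins.

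Apob encodes the structural protein of the particle. Its lowest, median and highest levels among the 6 mice were 928, 3201 and 4301 CPM in the lower zone, 5470, 5571 and 7126 CPM in the middle zone and 6588, 7099 and 9089 CPM in the upper zone. No lower-zone value reached any upper-zone value. Apob was higher in the upper zone by a log2 fold change of 1.74 (SE of 0.22, adjusted p = 6.81e-06 by edgeR's quasi-likelihood test), the highest among the 10 genes. KO2 had the widest ratio of upper to lower zone, at 7.40, WT2 had 4.16, and the other 4 mice lay between 2.00 and 2.22. Without KO2 and WT2 the log2 fold change was 1.32 (SE of 0.06).

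Apoa4 encodes an apolipoprotein of newly made chylomicrons. Its lowest, median and highest levels were 3190, 13423 and 18481 CPM in the lower zone, 17140, 22176 and 26453 CPM in the middle zone and 20016, 25769 and 31457 CPM in the upper zone. It was higher in the upper zone in 6 of 6 mice, by a log2 fold change of 1.56 (SE of 0.24, adjusted p = 4.74e-05 by edgeR's quasi-likelihood test), and by 1.09 (SE 0.06) without KO2 and WT2. Across the 18 sums of 6 mice and 3 zones, taken as deviations from each mouse's mean, log2 CPM of Apoa4 and Apob correlated at 0.99, given as a description since the sums share mice and depth.

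Apoa1 encodes the main protein of high-density lipoprotein, which the intestine also places on chylomicrons. It had the highest level of the 10 genes, with lowest, median and highest levels of 7700, 30463 and 38446 CPM in the lower zone and 33249, 38713 and 45360 CPM in the upper zone. The log2 fold change was 0.89 (SE of 0.25, adjusted p = 0.00447 by edgeR's quasi-likelihood test), and 0.46 (SE 0.06) without KO2 and WT2, a ratio of upper to lower zone of 1.12 to 1.20 in those 4 mice. UMIs of Apoa4 per UMI of Apoa1, its neighbour on the chromosome, had a median of 0.442 in the lower, 0.596 in the middle and 0.687 in the upper zone, so the balance of the pair shifted toward Apoa4.

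The C apolipoproteins did not share this pattern. Apoc2, the activator of lipoprotein lipase, had lowest, median and highest levels of 1693, 6198 and 7352 CPM in the lower zone, 1946, 3006 and 4252 CPM in the middle zone and 1667, 2321 and 3534 CPM in the upper zone. It was lower in the upper zone in 6 of 6 mice, by a log2 fold change of −0.73 (SE of 0.17, adjusted p = 0.00135 by edgeR's quasi-likelihood test), although KO2 stood close to even, with a ratio of 0.985. Apoc3, an inhibitor of lipoprotein lipase that lies between Apoa1 and Apoa4, had 938, 3617 and 4548 CPM in the lower zone and 3175, 3227 and 3429 CPM in the upper zone. Its log2 fold change of 0.44 (SE of 0.24, adjusted p = 0.109) did not pass the threshold, it was higher in 2 of 6 mice, KO2 and WT2, and without these it was −0.04 (SE 0.08). UMIs of Apoc2 per UMI of Apoc3 had a median of 1.71 in the lower, 0.910 in the middle and 0.728 in the upper zone.

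Mttp, whose product transfers triglyceride onto apolipoprotein B, ran against Apob. Its lowest, median and highest levels were 818, 1016 and 1243 CPM in the lower zone, 525, 793 and 996 CPM in the middle zone and 501, 605 and 910.2 CPM in the upper zone. It was lower at each step in 6 of 6 mice, with a log2 fold change of −0.38 (SE of 0.10, adjusted p = 0.00438 by edgeR's quasi-likelihood test). UMIs of Apob per UMI of Mttp had a median of 3.04 in the lower, 7.45 in the middle and 11.6 in the upper zone.

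The 3 acyltransferases of triglyceride synthesis split. Mogat2, which makes diglyceride from absorbed monoglyceride and starts the main intestinal route, had 156, 196 and 231 CPM (lowest, median, highest) in the lower zone, 63.4, 71.1 and 88.3 CPM in the middle zone and 27.9, 48.1 and 53.2 CPM in the upper zone. The zones did not overlap, and the log2 fold change was −1.86 (SE of 0.15, adjusted p = 1.74e-07 by edgeR's quasi-likelihood test), the farthest from 0 among the 10 genes. Dgat2, 1 of 2 enzymes that add the last fatty acid and the chromosomal neighbour of Mogat2, went the other way, with 94.5, 216 and 263 CPM in the lower zone, 253, 289 and 296 CPM in the middle zone and 275, 284 and 365 CPM in the upper zone. Its log2 fold change was 1.002 (SE of 0.17, adjusted p = 0.000116), and 0.62 (SE 0.08) without KO2 and WT2. UMIs of Dgat2 per UMI of Mogat2 had a median of 1.10 in the lower and 6.47 in the upper zone. Dgat1, the other enzyme of that last step, had 477, 734 and 837 CPM in the lower zone, 799, 918 and 1047 CPM in the middle zone and 714, 857 and 1007 CPM in the upper zone. It was higher in the upper than in the lower zone in 6 of 6 mice (log2 fold change 0.58, SE 0.11, adjusted p = 0.000351 by edgeR's quasi-likelihood test), but climbed at both steps in 1 mouse only. The Dgat1 ratio of upper to lower zone was 2.07 in KO2, 1.25 in WT2 and 1.03 to 1.20 in the other mice.

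Cd36, which encodes a receptor for long-chain fatty acids, had the lowest level of the 10 genes. Its lowest, median and highest levels were 22.3, 55.3 and 79.5 CPM in the lower zone, 23.8, 35.1 and 54.4 CPM in the middle zone and 16.0, 29.5 and 35.1 CPM in the upper zone. The log2 fold change of −0.55 (SE of 0.24, adjusted p = 0.0535 by edgeR's quasi-likelihood test) did not pass the threshold. It was higher in the upper zone in KO2 and WT2 and lower in the other 4 mice, and passed without KO2 (−0.78, adjusted p = 0.00228), without WT2 (−0.73, adjusted p = 0.0249) and without both (−1.06, adjusted p = 2.44e-06, where 69.4% of all genes tested were called). DESeq2 called it too (−0.56, adjusted p = 0.0453).

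With the score cut into 5 equal parts, much of the change lay between the lowest part and the next. Apob averaged 2425 ± 1093 CPM in part 1, 4860.3 ± 474 CPM in part 2 and 7860 ± 1025 CPM in part 5 (SD, n = 6 mice). Mogat2 averaged 212 ± 23.5, 106 ± 19.2 and 40.7 ± 10.5 CPM in the same parts. Apoa1 changed little after the first step, with 25264 ± 11636, 37022 ± 4650.1 and 39219 ± 5351 CPM. That first step differed among KO mice. From part 1 to part 2, Apoa1 rose from 6082 to 39068 CPM in KO2. It rose from 31749 to 32946 CPM in KO1 and from 27293 to 32898 CPM in KO3. Among the 13 enterocyte-like clusters, Apoa4 and Apob were highest in cluster 10 (35362 and 9371 CPM) and lowest in cluster 13 (1764 and 538 CPM). Apoc2, Apoc3 and Cd36 were highest in cluster 6 (8212, 5207 and 87.3 CPM), whose median score of 0.81 was below those of most clusters. Mogat2 was highest in cluster 20 (273 CPM), the cluster of lowest score.

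For most of these genes a higher CPM did not go with more UMIs per cell. Upper-zone cells held fewer UMIs of most genes: with cells in place of UMIs as the denominator, a scaling added after the data were seen, 84.3% of 8302 genes were lower in the upper zone and 4.28% higher, and the median log2 fold change over all genes was −1.51. On that scale Apob alone among the 10 was called higher (0.35, SE 0.12, adjusted p = 0.0140 by edgeR's quasi-likelihood test). Apoa4 stood at 0.19 (SE 0.12, adjusted p = 0.168), and the other 8 were called lower, with Apoa1 at −0.49, Dgat2 at −0.42, Dgat1 at −0.87 and Apoc3 at −0.95. Fewer transcripts per cell and less complete capture of them cannot be told apart in these counts.

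**Figure D2:**
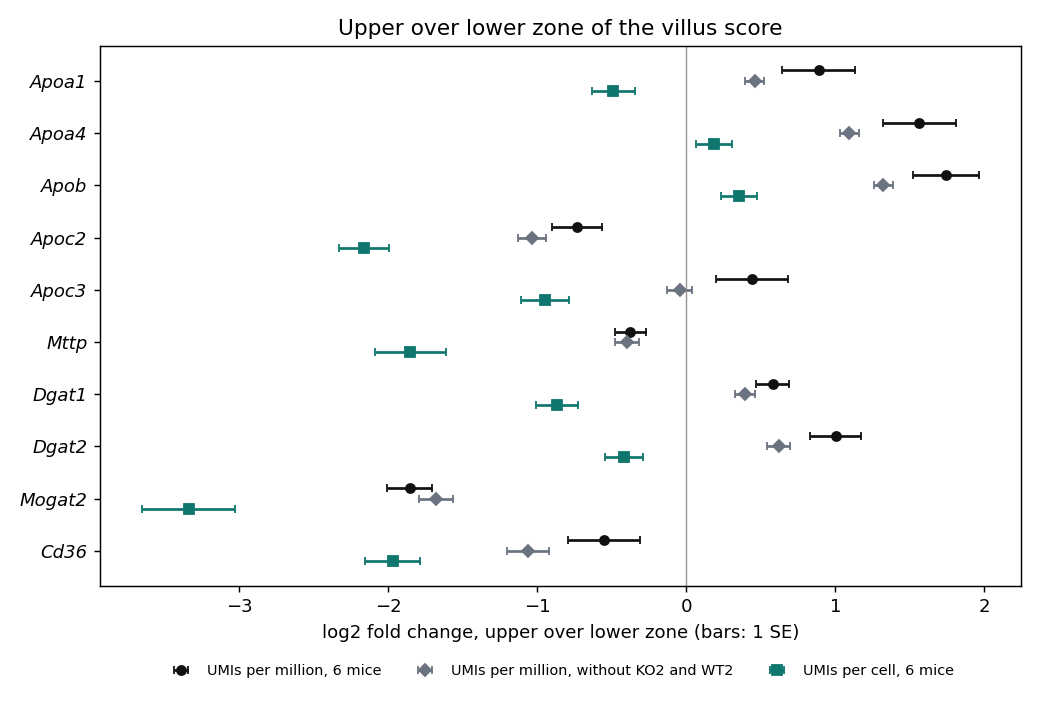
Log2 fold change of the upper over the lower zone (horizontal axis, bars 1 SE) for the 10 genes, with CPM in 6 mice (black circles), the same without KO2 and WT2 (grey diamonds) and UMIs per cell (green squares). Apob and Apoa4 lie highest on each scale, and the UMIs per cell of every gene lie left of its CPM.

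Other genes of the pathway moved in both directions with position. Of 56 further lipid genes, 45 were tested, 17 were higher and 20 lower in the upper zone, with a median log2 fold change of 0.02. Over all 8302 genes tested, 35.8% were higher and 37.7% lower, so these counts are close to that background. Among uptake and binding genes, the fatty acid binding protein Fabp1 averaged 9179 ± 4435 CPM in the lower and 372 ± 44.1 CPM in the upper zone (log2 fold change −4.30), and Fabp2 was lower as well (−2.15). The fatty acid transport protein gene Slc27a4 (1.33), the acyl-CoA synthetase gene Acsl3 (2.55) and the cholesterol transporter gene Npc1l1 (1.27) were higher. In triglyceride synthesis, the phosphatidate phosphatase gene Lpin2 averaged 263 ± 132 CPM in the lower and 2004 ± 185 CPM in the upper zone (3.28), while the acyltransferase genes Agpat3 (−2.04) and Gpat4 (−1.17) were lower (adjusted p between 9.29e-09 and 0.00230 for the genes named since Fabp1, edgeR's quasi-likelihood test).

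Genes of particle assembly and transport out of the endoplasmic reticulum counted 4 higher and 3 lower of 9 tested. The shares over all genes tested, 35.8% higher and 37.7% lower, are the background for this count and for that of the transcription factors. Apobec1, which edits the Apob transcript, averaged 69.2 ± 24.1 CPM in the lower and 186 ± 25.8 CPM in the upper zone (log2 fold change 1.72). Sar1b, the GTPase of the vesicles that carry chylomicrons, averaged 325 ± 25.9 and 128 ± 20.5 CPM in the same zones (−1.11), and Tm6sf2, which takes part in lipidating lipoproteins, was lower at −1.15. Of the lipid droplet genes, Plin2 was lower (−3.09) and Cidec higher (1.597). Among the 11 transcription factors, Prdm1 (3.21), Ppard (1.36), Creb3l3 (1.15) and Hnf4a (1.14) were higher and Ppara (−3.60), Maf (−1.64), Nr1h4 (−1.28) and Srebf2 (−1.17) were among the 6 that were lower. Creb3l3 and Hnf4a encode factors known to act on apolipoprotein genes. Hnf4g, another HNF4 gene, went opposite to Hnf4a, with an average of 265 ± 78.0 CPM in the lower and 108 ± 28.3 CPM in the upper zone. The part of these factors, higher or lower, in the levels of the apolipoprotein genes was not tested. None of the 7 other apolipoprotein genes passed the filter on low counts.

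The genes whose log2 CPM over the 18 sums was most like the mean of Apoa1, Apoa4 and Apob were Dusp6, Ehd1, Cdhr2, Sema6a, Klf3, Unc5b, Slc9a3r1 and Cdhr5, of 2751 genes of at least 50 CPM compared. Their Pearson correlations ran from 0.983 for Dusp6 to 0.971 for Cdhr5 and are given without a test.

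Between the genotypes, over all enterocyte-like cells, the 3 largest apolipoproteins were lower on average in KO mice but the groups overlapped for 10 of 10 genes. Apoa1 had 33585, 14518 and 30510.4 CPM in KO mice 1 to 3, against 42546, 23265 and 42662 CPM in WT mice 1 to 3. Apoa4 had 18869, 7322 and 18202 CPM in KO mice, against 25458, 9211 and 25415 CPM in WT mice. Apob had 4866, 2081 and 4358 CPM in KO mice, against 6321, 3070.4 and 6843 CPM in WT mice. In each case the mouse with hashtag 2 was the lowest of its genotype, and KO1 and KO3 lay below WT1 and WT3. The log2 fold changes of KO over WT were −0.65 (SE 0.53), −0.63 (SE 0.62) and −0.71 (SE 0.53), and adjusted p was 0.914 for each of the 3 (edgeR's quasi-likelihood test). Without KO2 the values were −0.35, −0.30 and −0.41, and without WT2 −0.93, −1.01 and −1.04, none of them called.

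**Figure D3:**
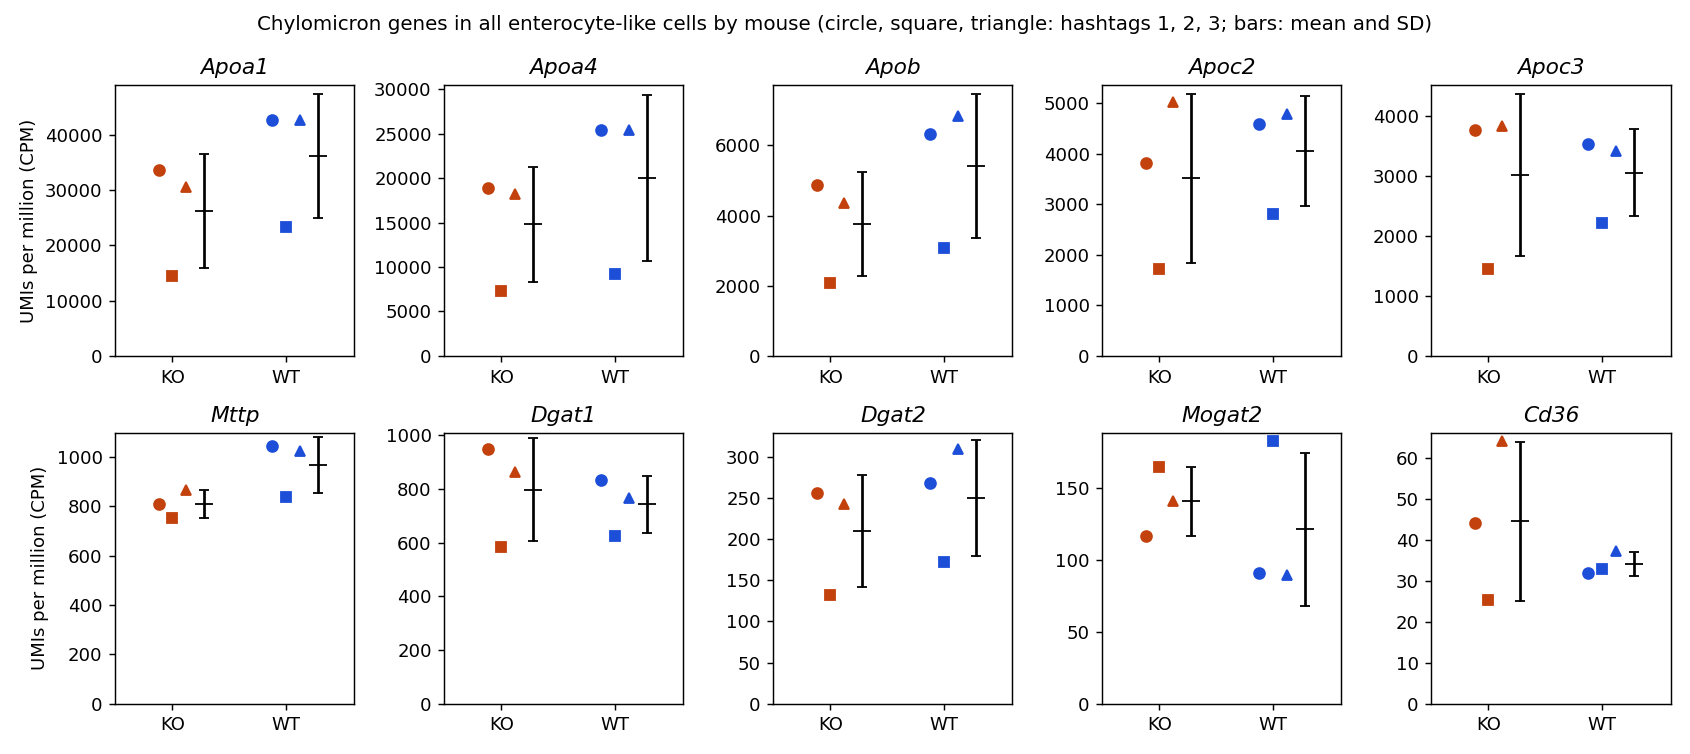
CPM (vertical axes, from 0) of the 10 genes in all enterocyte-like cells, with 1 point per mouse, KO left in orange and WT right in blue, shapes for hashtags 1 to 3, and the mean and SD of 3 mice beside them. The groups overlap for 10 of 10 genes, and the squares of KO2 and WT2 are the lowest points for Apoa1, Apoa4, Apob, Apoc2, Apoc3, Mttp, Dgat1 and Dgat2.

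None of 10686 genes was called in this comparison (0%). Without adjustment 372 had p under 0.05, and DESeq2 called 57 (0.542%), none of them among the 10. Over the 4996 genes of at least 20 CPM, all KO mice lay below all WT mice in 3.08% and above them in 6.04%. The 10 genes had a median log2 fold change of −0.41, against 0.07 over all genes tested. Mttp had 809.6, 752 and 864 CPM in KO mice, against 1042, 836 and 1024 CPM in WT mice, so KO3 lay just above WT2 (log2 fold change −0.44, SE 0.27). Apoc2 had 3805, 1718 and 5018 CPM in KO mice, against 4576, 2802 and 4772 CPM in WT mice. The remaining log2 fold changes ran from −0.43 for Dgat2 through −0.20 for Apoc3, −0.07 for Dgat1 and 0.08 for Mogat2 to 0.22 for Cd36, with adjusted p of 0.914 to 0.958.

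The outcome of this comparison depended on KO2 and WT2. With the hashtag number as a block, 1607 genes were called (15%; 6.82% lower), and Apoa1 (−0.67, adjusted p = 0.0167), Apoa4 (−0.58, adjusted p = 0.0265) and Apob (−0.70, adjusted p = 0.0148) were lower in KO mice by edgeR's quasi-likelihood test. Without KO2 and WT2, 773 genes were called (7.33%; 4.69% lower), and Apoa1 (−0.63, adjusted p = 0.0258), Apoa4 (−0.67, adjusted p = 0.0189), Apob (−0.73, adjusted p = 0.0187) and Mttp (−0.52, adjusted p = 0.0324) were lower. Without cluster 13, 140 genes were called (1.36%) and none of the 10. With cells in place of UMIs as the denominator, Apoa1, Apoa4 and Apob stood at −0.16, −0.10 and −0.20, Mttp at 0.13, and no gene was called.

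Other measures were set beside these levels, and the Paneth and crypt stem sums did not overlap between the genotypes while the rest did. Paneth cell markers, which enterocytes do not make, summed to 497 to 752 CPM in enterocyte-like cells of KO mice and 231 to 336 CPM in those of WT mice. Crypt stem markers summed to 25.1 to 27.5 CPM in KO mice and 39.6 to 48.1 CPM in WT mice. Markers of proximal intestine summed to 4295 to 14486 CPM in KO mice and 2979 to 9711 CPM in WT mice, with KO2 and WT2 the highest of their genotypes. Markers of ileum summed to 510 to 792 CPM in KO mice and 486 to 634 CPM in WT mice. KO mice had 24.9%, 43.8% and 40.0% of their enterocyte-like cells in the lower zone, against 22.01%, 46.5% and 28.8% in WT mice. Their part in the result was not tested.

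Within zones and with all 6 mice, Mttp was the gene among the 10 that was called between the genotypes, and more of them were called without WT2. In the upper zone Mttp had 553, 501 and 592 CPM in KO mice, against 910.2, 619 and 894 CPM in WT mice, so each KO mouse lay below each WT mouse. Its log2 fold change was −0.68 (SE of 0.16, adjusted p = 0.0194 by edgeR's quasi-likelihood test), in a comparison that called 477 of 6960 genes (6.85%; 4.32% lower). In the middle zone Mttp had 747, 525 and 727 CPM in KO mice, against 996, 839.6 and 932 CPM in WT mice, again without overlap, as all KO mice lay below all WT mice in 9.67% of genes there and above them in 18.9%. The log2 fold change there was −0.55 (SE 0.14, adjusted p = 0.0302), with 432 of 7541 genes called (5.73%; 3.54% lower). The call in the upper zone was lost without KO1, KO2, WT1 or WT3 (adjusted p of 0.0584 to 0.113), and that in the middle zone without KO2, WT1 or WT3 (0.0866 to 0.131).

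Apob in the upper zone had 6588, 6875 and 6685 CPM in KO mice, against 8282, 7324 and 9089 CPM in WT mice. The groups did not overlap, and the log2 fold change of −0.40 (SE of 0.12, adjusted p = 0.0704 by edgeR's quasi-likelihood test) did not pass the threshold; it passed without WT2 (−0.52, adjusted p = 0.00928). Without KO2 and WT2, Apoa1 (−0.55), Apoa4 (−0.38), Apob (−0.45), Apoc2 (−0.62) and Mttp (−0.51) were called lower in KO mice in the middle zone (adjusted p of 0.00276 to 0.0337 by edgeR's quasi-likelihood test, where 2.44% of genes were called lower), and Apob (−0.53) and Mttp (−0.80) in the upper zone (2.88%). Without WT2 alone, the same 5 genes were called lower in both zones (2.94% of genes in the middle and 4.96% in the upper zone), with log2 fold changes of −0.43 to −0.77 in the middle and −0.45 to −0.87 in the upper zone.

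Dgat1 in the upper zone had 1007, 989 and 859.9 CPM in KO mice, against 854, 714 and 754 CPM in WT mice, with each KO mouse above each WT mouse in CPM but a log2 fold change of 0.19 (SE of 0.12, adjusted p = 0.380) that was not called. Among 4197 genes of at least 20 CPM in that zone, all KO mice lay below all WT mice in 10.1% and above them in 20.2%, against 2 (Apob and Mttp) and 1 (Dgat1) of the 10 genes. Apoc2 stood at −0.52 (SE 0.21, adjusted p = 0.165) in the upper and −0.59 (SE 0.19, adjusted p = 0.0877) in the middle zone, and was called lower in both with the hashtag number as a block (adjusted p = 0.0161 and 0.00266, where 5.23% and 4.35% of genes were called lower), and in the middle zone also without KO3 (−0.80, adjusted p = 0.0322, where 2.87% were called lower). In the lower zone none of 9643 genes was called (0%; 245 had an unadjusted p under 0.05), and the largest change among the 10 was −0.60 (SE 0.73) for Apoa4.

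**Figure D4:**
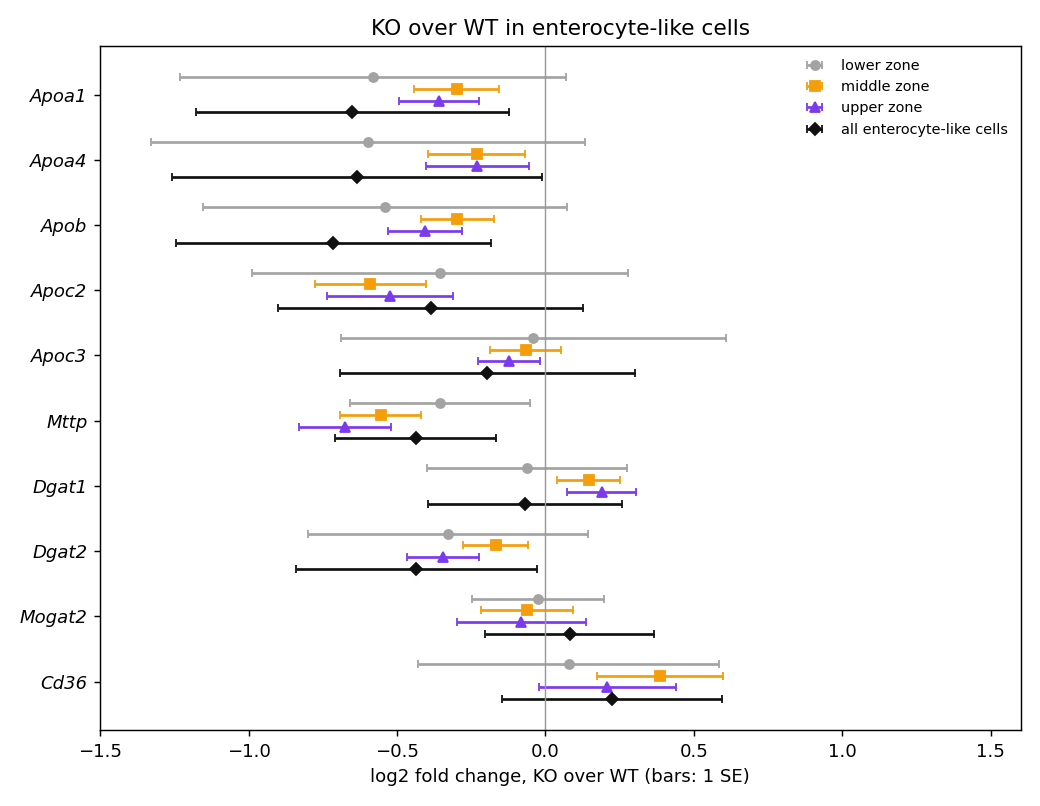
Log2 fold change of KO over WT (horizontal axis, bars 1 SE, 3 mice each) for the 10 genes in the lower, middle and upper zone and in all enterocyte-like cells. The errors are widest in the lower zone for each gene except Mogat2, and Mttp lies at −0.35, −0.55 and −0.68 from the lower to the upper zone.

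In the same upper zone, 5 of 40 further lipid genes tested were called, where 6.85% of all genes tested were called. The cholesterol exporter gene Abca1 (−1.73), the acyl-CoA synthetase gene Acsl5 (−0.60) and Sar1b (−0.49) were lower in KO mice, and Acsl3 (0.94) and Npc1l1 (0.51) were higher (adjusted p of 0.000181 to 0.0349, edgeR's quasi-likelihood test). In the middle zone 43 of these lipid genes were tested, 1 was called higher and 5 lower, where 5.73% of all genes tested were called. Abca1 (−1.70), Ppara (−1.27), Pparg (−1.17), Fabp1 (−0.76) and Sar1b (−0.54) were lower in KO mice there, and Npc1l1 (0.65) was higher. Paneth cell markers summed to 783 to 877 CPM in KO and 344 to 389 CPM in WT mice in the upper zone, and proximal markers to 1392 to 1446 CPM in KO and 1272 to 1333 CPM in WT mice. Crypt stem markers summed to 13.99 to 23.01 CPM in KO and 43.9 to 57.7 CPM in WT mice in the middle zone, and to 8.65 to 15.1 CPM in KO and 14.7 to 23.8 CPM in WT mice in the upper zone. In the middle zone the median mitochondrial share was 13.5% to 15.4% in KO and 16.1% to 17.8% in WT mice, without overlap. Their part in these differences was not tested.

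The change between the zones was not shown to differ between the genotypes. In the test of that difference none of 8302 genes was called (0%; 297 had an unadjusted p under 0.05, and DESeq2 called 0). Among the 10 genes the difference, KO minus WT in the log2 fold change of upper over lower zone, ran from −0.36 (SE 0.19) for Mttp to 0.36 (SE 0.51) for Apoa4, with adjusted p of 1.

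Taken as whole classes, goblet-like and cycling-like cells had far lower levels of these genes than enterocyte-like cells. Each class was 1 pooled sample per genotype, so no test was made and intervals cover counting error only. In goblet-like cells the median level of the 10 genes was 5.95% of that in enterocyte-like cells in KO and 10.3% in WT. Apoc2 stood out, at 676 CPM (95% exact Poisson interval 661 to 691) in KO and 1018 CPM (1001 to 1036) in WT goblet-like cells, which is 21.3% of its enterocyte-like level in KO and 26.5% in WT. Apoa1, at 1354 CPM (1333 to 1375) in KO and 3517 CPM (3485 to 3551) in WT, kept 5.51% of its enterocyte-like level in KO and 9.91% in WT. The part of free RNA in these levels was not tested. The WT goblet-like class holds cluster 11, with 7 KO and 397 WT cells, and the cells of that class had a median of 5727 UMIs, against 25378 in KO. Cluster 11 did not share the low levels of the class. It had 18603 CPM of Apoa1 and 2481 CPM of Apoc2. Goblet-like clusters 4 and 15 had 1471 and 1017 CPM of Apoa1 and 833 and 566 CPM of Apoc2. Enterocyte-like cluster 13 had 6409 CPM of Apoa1 and 1530 CPM of Apoc2.

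**Figure D5:**
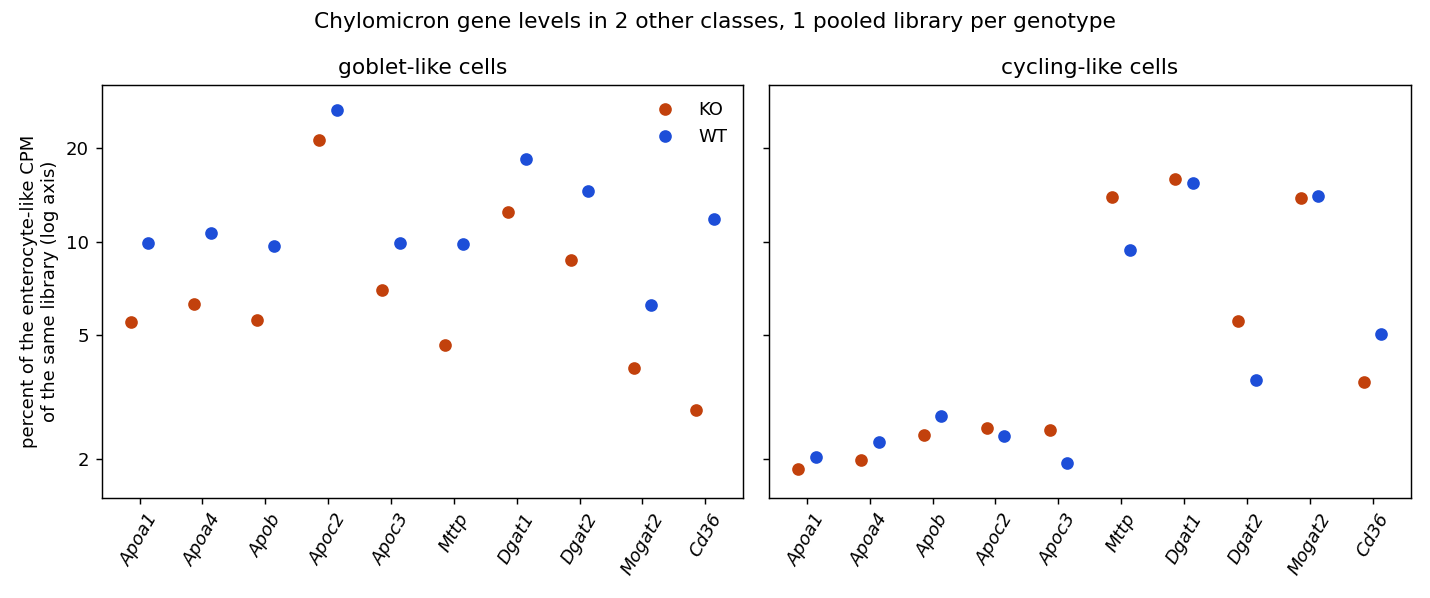
Level of each gene in goblet-like (left) and cycling-like (right) cells as a percent of its CPM in enterocyte-like cells of the same library (log axis), KO in orange left of WT in blue, 1 pooled library each. Apoc2 is highest in goblet-like cells, and Mttp, Dgat1 and Mogat2 lie above the apolipoproteins in cycling-like cells.

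All cycling-like cells assigned to a mouse came from KO2 (161) and WT2 (86), so this class is in effect 1 mouse per genotype, and those are the mice that stand apart. In these cells the 5 apolipoprotein genes stood at 1.86% to 2.52% of their enterocyte-like level in KO and 1.94% to 2.76% in WT. Mttp stood at 13.9% in KO and 9.41% in WT, Dgat1 at 16.0% in KO and 15.5% in WT, and Mogat2 at 13.9% in KO and 14.04% in WT. These percents are against all enterocyte-like cells of the library and not those of KO2 and WT2 alone. Apoa1 had 456 CPM in KO and 720 CPM in WT cycling-like cells. Enterocyte-like cells had 14518 CPM of it in KO2 and 23265 CPM in WT2, against 24570 and 35508 CPM in the whole KO and WT libraries. For Mttp, KO2 and WT2 had 752 and 836 CPM, against 822 and 949 CPM. With each cell thinned to 2000 UMIs, Mttp was found in 19.6% of KO (exact binomial interval 13.8 to 26.6) and 21.0% of WT cycling-like cells (14.2 to 29.2), against 5.36% of KO and 27.1% of WT goblet-like cells and, among enterocyte-like cells, 65.6% in KO and 78.1% in WT. The goblet-like clusters differed among themselves, with 39.0 and 37.3 CPM of Mttp in clusters 4 and 15 and 455 CPM in the shallow cluster 11. Cd36 had 14 UMIs in KO and 51 in WT goblet-like cells. Immune-like cells had a median of 24.8% of the enterocyte-like level in KO (29 cells, median 3641 UMIs). In WT immune-like cells this median was 58.4% (35 cells, median 2660.0 UMIs), and the part of free RNA was not tested here either. Unnamed cells had a median of 5.20% in KO (62 cells) and 32.2% in WT (541 cells).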

How the data were processed

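The deposited matrices hold raw UMI counts per gene and barcode, made by the authors with Cell Ranger 7.0.1 against mm10, per the submitters' processing notes, which also name Seurat 4.1.0 without its role. Whether intronic reads were counted is not given in the sources used here. Of the 2 experiments in the labels, the first was analysed.

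From these counts, each barcode was given its mouse by HTODemux (Seurat 5.3.0) at a quantile of 0.99, run on all barcodes. Hashtag doublets (305 KO, 549 WT) were left out, doublets within a mouse were not removed, and cells without a hashtag (855 KO, 2241 WT) entered the clustering and the class levels only. The 8737 cells were clustered with scanpy 1.11.5 (2000 variable genes, 30 components, 15 neighbours, leidenalg 0.10.2 at resolution 1) without the 10 genes and without interferon, antigen presentation, mitochondrial, ribosomal protein, haemoglobin and sex-linked genes. Of the 23 clusters, each was named from its class markers reaching 20 CPM in some cluster, with a lead of 0.15 in mean scaled level over the next class. The CPM minimum and the lead were chosen with the clusters in view, as were 3 of the alternatives (every marker counted, without cluster 13, UMIs per cell). Position scores used log values per 10000 UMIs, each gene divided by its SD.

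UMI counts were summed per mouse, or per mouse and zone (at least 136 cells each), and tested with edgeR 4.0.16 (R 4.3.3; quasi-likelihood F test, TMM, filterByExpr, Benjamini-Hochberg over all genes tested, threshold 0.05). DESeq2 1.42.0 served as an alternative. Scripts were tested on simulated counts. Since 3 mice per genotype shared 1 pool, p-values cover the spread between mice only. Mice with the same hashtag number in both pools deviated together from their genotype's mean (correlations of 0.670, 0.884 and 0.681 across genes for numbers 1 to 3), so the number was used as a replicate block beside the results it changed. Differently numbered mice did so as well (0.730 for KO1 with WT3, 0.529 for KO3 with WT1), and the labels state no pairing.

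The 10 genes, the lipid list, the landmark genes and the tests were chosen with earlier results of these data known. All 10 genes are named. From the lipid groups, at most 4 genes per group and direction past the threshold were eligible to be named, by size of change, along with the 8 genes whose pattern was most like that of Apoa1, Apoa4 and Apob. Hnf4g was named outside this rule, beside Hnf4a.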

Additional observations from a re-analysis of the deposited data

How the results depend on the processing

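The differences by position of Apoa1, Apoa4, Apob, Apoc2, Mttp, Dgat1, Dgat2 and Mogat2 kept their direction and their call under every alternative except UMIs per cell, where Apoa1 (−0.49), Dgat1 (−0.87) and Dgat2 (−0.42) reversed and Apoa4 (0.19) was not called. Apoc3 was never called in its main direction and stood at −0.95 with UMIs per cell and −0.0437 without KO2 and WT2. Cd36, not called in the main comparison, was called lower under 14 of 22 alternatives. Over all genes, the count by position was 5719 to 6067 with 1 mouse left out.

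Between the genotypes over all cells, where the main count was 0, counts were 57 with DESeq2, 773 without KO2 and WT2, 140 without cluster 13 and 1607 with the replicate block, and 0 with any 1 mouse left out. With UMIs per cell Apoc2 (0.0721), Apoc3 (0.23), Mttp (0.13), Dgat1 (0.42) and Dgat2 (0.0680) reversed without a call, as did Dgat1 without cluster 13 (0.0184). With 1 mouse left out, uncalled values ran from −0.93 to −0.35 for Apoa1, −1.01 to −0.30 for Apoa4, −1.04 to −0.41 for Apob, −0.43 to 0.15 for Apoc3, −0.24 to 0.13 for Dgat1, −0.0656 to 0.39 for Mogat2 and −0.16 to 0.52 for Cd36. The test of the genotype difference in position called 7 genes without a filter on low counts, 47 without KO2 and WT2 and 5 without cluster 13.

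In the lower zone the count of 0 became 262 without KO2 and WT2 and 389 with the replicate block. Uncalled values there turned without KO2 and WT2 for Apoc3 (0.13), Dgat1 (0.0289) and Mogat2 (0.15), with zones set within mice for Mogat2 (0.0174) and with the replicate block for Cd36 (−0.0776). With 1 mouse left out they ran from −0.69 to 0.0505 for Apoc2, −0.37 to 0.40 for Apoc3, −0.20 to 0.16 for Dgat1, −0.0887 to 0.14 for Mogat2 and −0.33 to 0.46 for Cd36. In the middle zone the count of 432 became 215 with zones set within mice, where Mttp was not called (−0.52, adjusted p = 0.0512 by edgeR's quasi-likelihood test), and 179 to 358 with 1 mouse left out, and values ran from −0.18 to 0.0146 for Apoc3 and −0.22 to 0.0464 for Mogat2. In the upper zone the count of 477 became 309 without KO2 and WT2 and 204 to 563 with 1 mouse left out. Mogat2 stood at 0.17 without KO2 and WT2, 0.15 with zones set within mice and −0.22 to 0.15 with 1 mouse left out, and Cd36 at −0.0242 to 0.40. The cause of these changes was not tested.

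The median goblet-like level, in percent of the enterocyte-like one, was 21.8 in KO and 45.5 in WT as a share of thinned cells with a UMI, and 5.92 in KO and 6.49 in WT with assigned cells only. Of 670 alternatives for single genes, 582 kept direction and call, 42 reversed (38 without a call on either side), 37 gained and 9 lost a call. With 3 mice per genotype and 1 pool each, small differences may not be detectable, and Cd36 rested on 35 to 84 UMIs per mouse in the upper zone.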
